A study of Mus musculus with 8 samples.

Results

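Of 21 sterol synthesis genes 17 had a higher mean level on the log2 scale in Esrp1-deleted mouse epidermis than in control epidermis, against 25.5% of all genes tested. Of 9 fatty acid synthesis genes tested 2 had a higher one, near that share. A test over all genes called 1 of these genes, Stard4, as higher and none as lower. It called 0.917% of all genes tested as higher and 1.54% as lower. The set comprised 31 genes of the 21690 in the expression table, chosen by their known roles, with earlier results of these data known. It held 21 genes of sterol synthesis, its regulation and sterol transport, and 10 of fatty acid synthesis, desaturation and elongation. The samples were back-skin epidermis of mice on postnatal day 5, in 4 control and 4 experimental RNA sequencing libraries that the labels call biological replicates. Control animals were Esrp1flox/flox and Esrp2-/-, without Cre. Experimental animals were K5rTA tetOCre Esrp1flox/flox and Esrp2-/-, so that a transactivator under the keratin 5 promoter switched on Cre in basal keratinocytes and the follicle and gland epithelium derived from them. Mothers of both groups were fed high doxycycline chow from embryonic day 17. Both groups therefore lacked Esrp2, the paralogue of the splicing regulator Esrp1, and only the experimental group carried the transgenes. Libraries are numbered below in the order of the table's columns, since the columns could not be matched to the replicate numbers of the labels.

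Cells make cholesterol from acetyl-CoA by way of mevalonate, farnesyl diphosphate, squalene and lanosterol. The enzymes of this route are under common transcriptional control by SREBP2, a membrane-bound factor that is held in the endoplasmic reticulum by the INSIG proteins when sterols are plentiful. The related factor SREBP1 acts mainly on fatty acid synthesis, in which acetyl-CoA is carboxylated to malonyl-CoA, built into palmitate and then desaturated or elongated. Epidermis uses both products: with ceramides, cholesterol and free fatty acids form the lipid sheets between cornified cells that hold back water, and sebaceous glands make lipids of their own.

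Levels are in TPM, a share of transcripts corrected for gene length, on which levels of different genes can be compared, with entries of 1 TPM or less listed at 0. How deeply each library was sequenced cannot be read from TPM and is unknown. Between 10523 and 11640 genes lay above 1 TPM in control libraries and between 10401 and 11077 in experimental ones. The 10 most abundant genes took 17.6% to 18.4% of the listed TPM across controls and 22.4% to 24.7% in experimental libraries, while the mitochondrial share of 10.6% to 12.6% seen in 6 libraries was 18.2% in experimental library 2 and 17.5% in experimental library 4. The keratinocyte markers Krt5, Krt14, Krt1 and Krt10 were present in every library. The adipocyte markers Adipoq and Plin1 and the endothelial marker Pecam1 were at 0 in all 8, and the fibroblast marker Col1a1 was above the floor in 1. Sebocyte markers were detected, with Awat2 in every library and Mc5r in 7 of 8, as were Dct of melanocytes, Cd207 of Langerhans cells and Cd3e of T cells. Esrp1 read 131 to 162 TPM across controls and 49.8 to 75.6 TPM in experimental libraries (log2 change -1.13, limma adjusted p = 0.0112). In bulk tissue, fewer cells of a type and less RNA per cell cannot be told apart.

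The control libraries differed among themselves, in an order that touches most of what follows. Summed over a list of basal keratinocyte markers, control libraries 1 to 4 read 8061, 6890.2, 2832 and 921 TPM, and over a list of cell cycle genes 449.9, 295, 110.4 and 52.6 TPM. Experimental libraries lay between these extremes, at 1751 to 3019 TPM for the basal list and 132 to 144 TPM for the cell cycle list. Of the 10682 genes with a mean of at least 1 TPM, 60.4% were higher in both of control libraries 1 and 2 than in both of 3 and 4, and 15.2% the reverse. Among the 21 sterol genes 15 had that order and 2, Dhcr7 and Insig1, the reverse. Among the 9 fatty acid genes tested 8 had that order and 0 the reverse. The labels give no batch, litter or dissection that would account for this order.

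Differences were tested with limma on log2(TPM + 1), a scale that understates changes of low genes, over all 10682 genes with Benjamini-Hochberg adjustment and a threshold of 0.05. The median gene differed by -0.18 on this scale, and centring each library on its median moved it to 0.03. Because of this shift, changes are given on both scales, as listed and centred. On the listed scale 0.917% of all genes rose and 1.54% fell, and with centring 2.65% rose and 0.955% fell.

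Promoter sequences are shown for 2 of the sterol enzymes that lay above control in every experimental library and for 2 of the members that lay below it. Each stretch shown holds a box marked below. Stretches of the same length upstream of Pmvk, Cyp51 and Me1, whose groups also did not overlap, held neither box and are not shown. RefSeq promoter windows of 300 bases, 250 before and 50 after a start site, were held for 25 of the 31 members, in 31 windows (GRCm38.p6); Fads1, Fdft1, Fdps, Scd2, Sqle and Stard4 had no entry. Below are 120 bases upstream of Mvd, an enzyme of the mevalonate route, Sc5d, a late sterol enzyme, Insig1, the sterol-sensing regulator, and Elovl5, a fatty acid elongase, each 5′ to 3′ on the gene's strand. Capitals mark the NF-Y box CCAAT, or ATTGG on the other strand, which is bound by a factor known to act beside SREBPs, and the E-box CACGTG.
Mvd, chr8:122443423-122443542, minus strand: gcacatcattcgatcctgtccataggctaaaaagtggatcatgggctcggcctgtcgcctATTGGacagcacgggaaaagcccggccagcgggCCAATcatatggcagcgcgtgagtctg
Sc5d, chr9:42264301-42264420, minus strand: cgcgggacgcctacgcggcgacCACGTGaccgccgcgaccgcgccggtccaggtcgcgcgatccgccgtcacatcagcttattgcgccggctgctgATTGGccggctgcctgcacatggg
Insig1, chr5:28071243-28071362, plus strand: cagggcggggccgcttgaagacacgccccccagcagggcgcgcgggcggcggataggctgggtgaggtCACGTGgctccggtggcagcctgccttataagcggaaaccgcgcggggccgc
Elovl5, chr9:77917244-77917363, plus strand: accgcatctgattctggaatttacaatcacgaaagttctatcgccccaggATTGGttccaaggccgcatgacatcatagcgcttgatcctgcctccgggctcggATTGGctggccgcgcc

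The NF-Y box was present in 23 of the 31 member windows, on either strand, and in 37.4% of all 32851 RefSeq promoters. It lay in 16 of 20 sterol windows and in 7 of 11 fatty acid windows. Counted by gene, with a match in any window enough, it lay in 16 of 17 sterol genes and in 6 of 8 fatty acid genes. The Sp1 box GGGCGG was present in 22 member windows and in 35.7% of all promoters. The E-box CACGTG was present in 5 member windows and 7.15% of all promoters. The classical sterol regulatory element, searched as 1 exact spelling, was in none of the 31 and in 0.0913% of all promoters, which says only that this spelling of a variable site is not in these windows. The stretches of Mvd and Elovl5 hold 2 NF-Y boxes each, and the expression of these 2 genes lay on opposite sides of control. A match describes letters and shows no binding.

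Stard4 was the only one of the 31 genes to pass the test on the listed scale. It encodes a carrier that moves cholesterol between membranes, and lies on chromosome 18 from 33199355 to 33213862 (GRCm38). Control libraries read 34, 25.7, 21.4 and 23.1 TPM and experimental libraries 41.1, 42.2, 53.8 and 52.4 TPM. Every experimental library lay above every control. The means were 26.0 ± 5.58 and 47.4 ± 6.63 TPM (SD, n = 4 each), 1.82-fold higher, with a log2 change of 0.85 (SE 0.19, adjusted p = 0.0453 in limma). The call was narrow: it held in 2 of 8 fits that left out 1 library, with adjusted p from 0.0279 to 0.148, and not without the filter on low values (adjusted p = 0.0505). It was lost when control 2, control 3 or any 1 experimental library was left out. On the centred scale the log2 change was 1.06 (SE 0.12, adjusted p = 0.00385 in limma), and it held in 8 of 8 such fits.

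**Figure D1:**
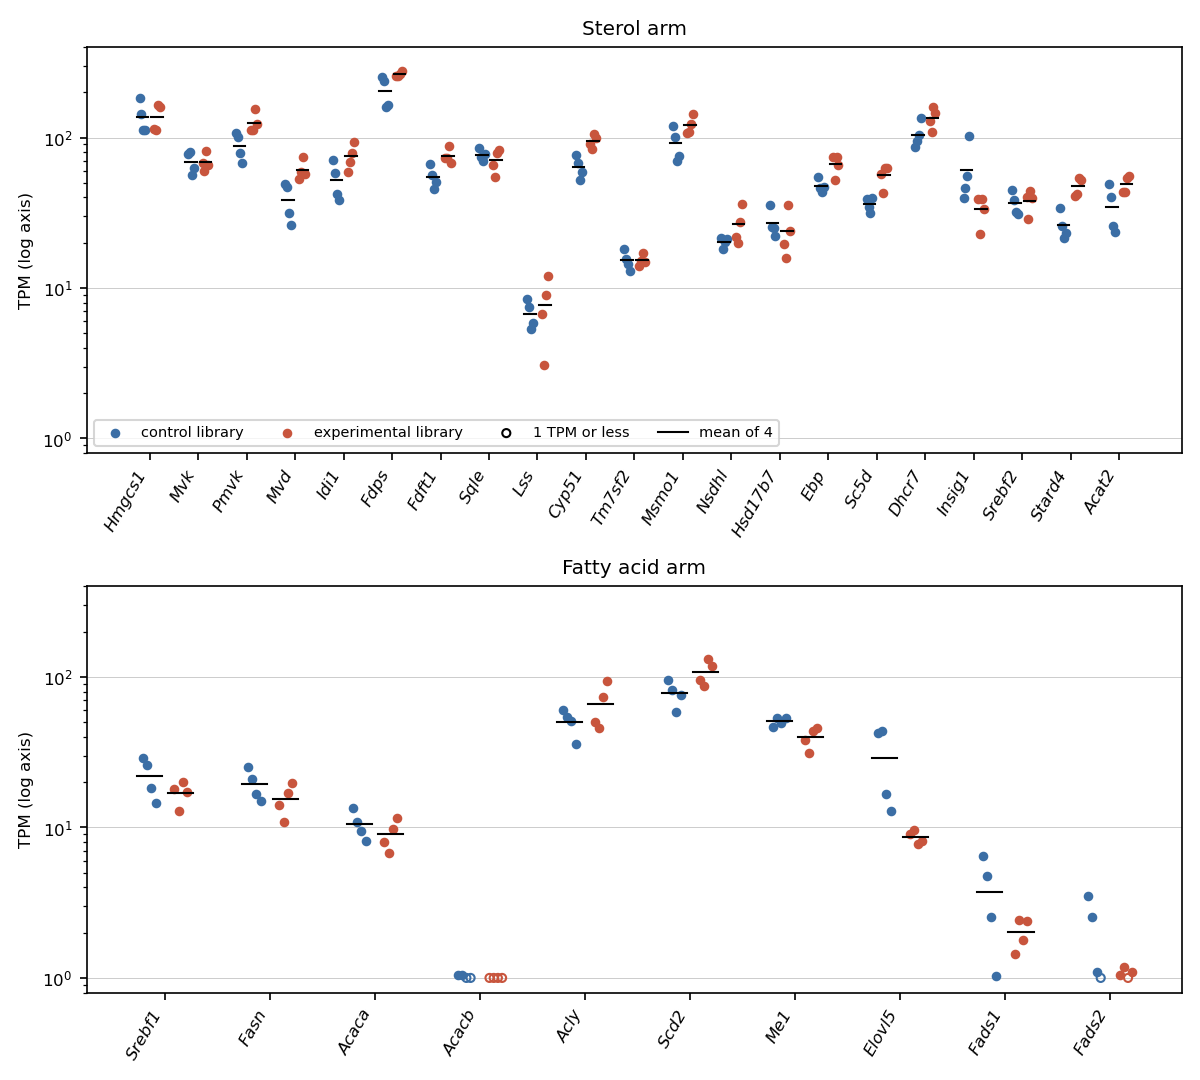
TPM of each of the 31 members on a log axis, with one point per library and a bar at the group mean (n = 4 per group; open symbols at 1 mark entries at or under the floor, and groups with such an entry have no bar). Stard4 is separated between groups, Elovl5 is separated the other way, and most other members overlap.

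The sterol genes lay mostly above control as a set. All 21 passed the filter, and 17 had a log2 change above 0 and 4 below, against 25.5% of all genes above 0. Their median log2 change was 0.41, against -0.18 over all genes. With centring 19 lay above 0, against 54.5% of all genes, the median was 0.62 against 0.03, and 10 of 21 rose with none falling: Pmvk, Mvd, Idi1, Fdft1, Cyp51, Msmo1, Ebp, Sc5d, Stard4 and Acat2. With quantile normalization 5 rose (2.52% of all genes), Fdft1, Cyp51, Ebp, Sc5d and Stard4. On the listed scale 9 sterol genes had an unadjusted p under 0.05, 8 above control and 1 below (3.54% and 13.4% of all genes). Groups did not overlap for 7 members with experimental libraries higher, Pmvk, Mvd, Fdps, Fdft1, Cyp51, Sc5d and Stard4 (2.7% of all genes), and for 1 with them lower, Insig1 (9.94%).

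The mean of the 21 genes per library shows how far this rests on the scale. On the log2(TPM + 1) scale it was 5.83, 5.66, 5.40 and 5.47 in controls and 5.78, 5.60, 6.08 and 6.0 in experimental libraries, with overlap. Measured from each library's own median gene it was 2.10, 2.05, 1.99 and 2.16 in controls and 2.47, 2.55, 2.68 and 2.55 in experimental libraries. On this second scale no control reached the lowest experimental library.

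**Figure D2:**
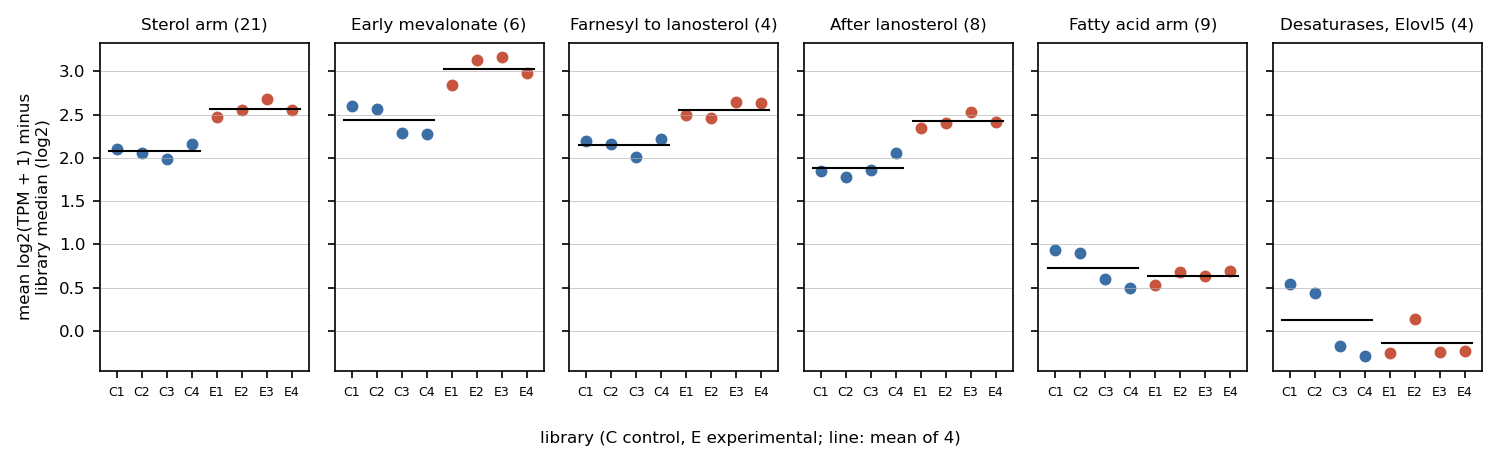
Mean log2(TPM + 1) of the sterol and fatty acid genes in each library, measured from that library's median gene, for each arm, for the steps of the sterol route and for Elovl5 with the desaturases (points are libraries, lines the means of 4). For the sterol genes controls lie at 1.99 to 2.16 and experimental libraries at 2.47 to 2.68, while for the fatty acid genes the groups overlap.

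Of the mevalonate genes, which turn acetyl-CoA into isoprenoid building blocks, Mvd had the highest change. It encodes mevalonate diphosphate decarboxylase and read 49.4, 47.1, 31.4 and 26.1 TPM across controls and 53.3, 58.9, 74.5 and 57.4 across experimental libraries. Control libraries 3 and 4 were lowest and the groups did not overlap. The means were 38.5 ± 11.5 and 61.0 ± 9.32 TPM (SD, n = 4 each), and the log2 change was 0.69 (SE 0.23, adjusted p = 0.158 in limma), or 0.90 with centring (limma adjusted p = 0.0259). Without control libraries 1 and 2 it was 1.05 and passed on the listed scale (limma adjusted p = 0.0263).

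Pmvk encodes phosphomevalonate kinase, the step before Mvd. It read 107, 101, 78.7 and 67.4 TPM across controls and 113, 113, 154 and 123 across experimental libraries. All 4 experimental libraries lay above control 1, the highest control. This was a log2 change of 0.52 (SE 0.20, adjusted p = 0.211 in limma), or 0.73 with centring (limma adjusted p = 0.0227). Idi1, isopentenyl diphosphate isomerase, read 70.9, 58.1, 42.4 and 38.3 TPM across controls and 58.7, 68.7, 79.5 and 92.9 across experimental libraries. Here control 1 lay above experimental libraries 1 and 2. Its log2 change was 0.53 (SE 0.23, adjusted p = 0.277 in limma), or 0.74 with centring (limma adjusted p = 0.0434).

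Acat2 encodes the cytosolic thiolase that joins acetyl-CoA units at the start of the route. Controls read 49.3, 40.1, 25.8 and 23.4 TPM and experimental libraries 43.3, 43.3, 53.8 and 55.2 TPM. The groups overlapped through control 1. Between groups the log2 change was 0.54 (SE 0.24, adjusted p = 0.297 in limma), or 0.75 with centring (limma adjusted p = 0.0439). Among the other early enzymes 2 stood level on the listed scale: Hmgcs1, HMG-CoA synthase, averaged 138 ± 34 and 138 ± 27.7 TPM, and Mvk, mevalonate kinase, 69.2 ± 11.8 and 68.8 ± 8.88 TPM (SD, n = 4 each). For Mvk the sign depends on the scale, since its log2 change of about 0 became 0.21 with centring.

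Between farnesyl diphosphate and lanosterol the genes diverged. Fdft1, squalene synthase, read 66.9, 56.0, 45.7 and 50.4 TPM across controls and 73.7, 72.8, 87.8 and 67.8 across experimental libraries. The lowest experimental library lay just above the highest control. The log2 change was 0.47 (SE 0.17, adjusted p = 0.197 in limma), or 0.68 with centring (limma adjusted p = 0.0344). Its exons share 774 bases with Ctsb on the opposite strand, and the sources used here do not say if counting used strand.

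Fdps, farnesyl diphosphate synthase, was the most abundant member, at 252, 239, 159.9 and 164 TPM across controls and 258, 258, 265 and 279 across experimental libraries. The experimental libraries were close together and above all controls, of which 3 and 4 were lowest. It passed on neither scale, with a log2 change of 0.41 (SE 0.19, adjusted p = 0.320 in limma), or 0.62 with centring (limma adjusted p = 0.0529). It shares 1124 exonic bases with Gm43738 on the same strand, so how reads were divided between them is uncertain. Sqle, squalene epoxidase, averaged 76.9 ± 6.50 and 70.7 ± 12.9 TPM (SD, n = 4 each), and its log2 change of -0.14 became 0.08 with centring. Lss, lanosterol synthase, averaged 6.77 ± 1.43 and 7.74 ± 3.80 TPM, with experimental library 2 lowest of all at 3.10 TPM.

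Of the genes after lanosterol, Cyp51 was the steadiest. It encodes lanosterol demethylase and read 76.6, 67.5, 52.5 and 59.1 TPM across controls and 90.2, 84.4, 106 and 100 across experimental libraries. Each experimental library lay above each control. The means were 64.0 ± 10.4 and 95.2 ± 9.68 TPM (SD, n = 4 each), 1.49-fold higher. This was a log2 change of 0.57 (SE 0.17, adjusted p = 0.116 in limma), or 0.79 with centring (limma adjusted p = 0.00771), and the centred call held in 8 of 8 fits that left out 1 library.

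Sc5d, sterol C5-desaturase, read 39.3, 34.8, 31.5 and 39.9 TPM across controls and 57.0, 42.7, 62.7 and 62.5 across experimental libraries. Experimental library 2 was nearest to the controls, which it still exceeded. Between groups the log2 change was 0.60 (SE 0.18, adjusted p = 0.113 in limma), or 0.82 with centring (limma adjusted p = 0.0147). Ebp, the sterol isomerase also known as emopamil binding protein, read 55.0, 45.9, 43.3 and 47.1 TPM across controls and 73.9, 52.2, 73.8 and 65.5 across experimental libraries, with experimental library 2 below control 1. Its log2 change was 0.46 (SE 0.17, adjusted p = 0.201 in limma), or 0.67 with centring (limma adjusted p = 0.0227). Msmo1, the sterol methyl oxidase, read 119.6, 101, 70.3 and 75.4 TPM across controls and 107, 109, 123 and 144 across experimental libraries. Control 1 lay within the experimental range. Its log2 change was 0.42 (SE 0.21, adjusted p = 0.335 in limma), or 0.63 with centring (limma adjusted p = 0.0427).

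The other late enzymes did not pass on either scale over all libraries. Dhcr7, which makes cholesterol from its immediate precursor, averaged 105 ± 20.9 and 136 ± 21.6 TPM, and Nsdhl, a sterol dehydrogenase, 20.3 ± 1.39 and 26.5 ± 7.37 TPM (SD, n = 4 each). Both means lay above control, and Dhcr7 rose on the listed scale without control libraries 3 and 4. Tm7sf2, a sterol reductase, averaged 15.3 ± 2.17 and 15.3 ± 1.31 TPM. Hsd17b7, a sterol ketoreductase, averaged 27.2 ± 6.0 and 23.8 ± 8.67 TPM, the only one of the 8 genes after lanosterol below 0, with a log2 change of -0.22, or -0.01 with centring (SD, n = 4 each). Tm7sf2 shares 532 exonic bases with Vps51 on the same strand.

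**Figure D3:**
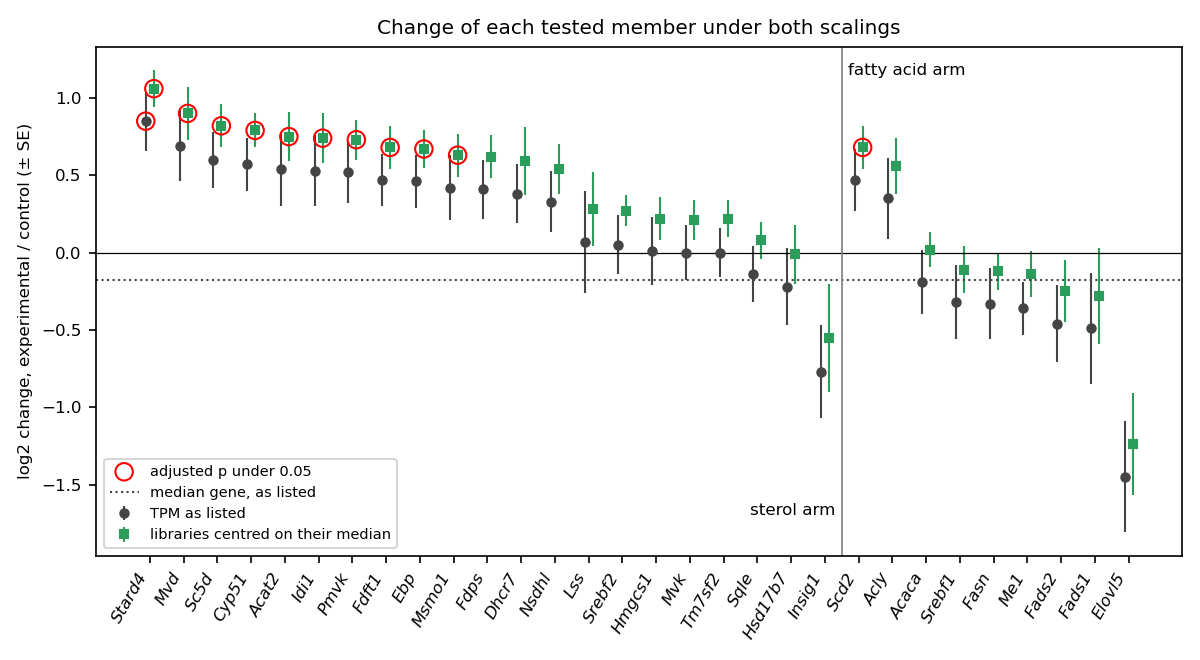
Log2 change of each tested member, experimental minus control, with its standard error on the listed scale and on the median-centred scale (red rings: limma adjusted p under 0.05; dotted line: median gene). Most sterol genes lie above 0 and shift upward by the same amount with centring, and Elovl5 and Insig1 lie lowest.

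The regulators Insig1 and Srebf2 differed from each other. Insig1, whose product retains SREBPs and whose own gene is a known SREBP target, read 39.7, 45.9, 55.3 and 102 TPM across controls and 39.1, 23.0, 39.2 and 33.3 across experimental libraries. All experimental libraries lay below all controls, though experimental library 3 was 39.2 and control 1 was 39.7 TPM, and control 4 stood well above the rest. The log2 change was -0.77 (SE 0.30, adjusted p = 0.218 in limma), or -0.55 with centring (limma adjusted p = 0.453). Srebf2, which encodes SREBP2, averaged 36.6 ± 6.21 and 38.2 ± 6.69 TPM (SD, n = 4 each). Its log2 change was 0.05 (limma adjusted p = 0.905), or 0.27 with centring (limma adjusted p = 0.219).

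The number of sterol genes that passed differed with the libraries compared. Against control libraries 3 and 4 alone, 5 rose on the listed scale, Mvd, Fdps, Cyp51, Stard4 and Acat2 (1.78% of all genes), with a median of 0.53 against 0.01 over all genes. Against control libraries 1 and 2 alone, 2 rose, Dhcr7 and Stard4 (2.23%), with a median of 0.13 against -0.34. Without experimental libraries 2 and 4, those with the high mitochondrial share, none passed (0.131% of all genes rose), with a median of 0.39 against -0.14. With centring, these 3 settings gave 7, 10 and 0 rises, where 2.42%, 7.51% and 0.449% of all genes rose. Leaving out 1 library with centring gave 2 to 10 rises, and the share of all genes that rose moved as well. There were 2 rises without control 3 or experimental library 3 (1.4% and 1.19% of all genes). Without control 2 or experimental library 2 there were 3 (1.54% and 1.57%), and without control 1 or experimental library 1 there were 5 (1.63% and 1.7%). Without experimental library 4 there were 7 (2.26%) and without control 4 there were 10 (4.63%). Besides Stard4 and Cyp51, which passed in 8 of 8 such fits, Sc5d passed in 5, Mvd in 4, Pmvk in 3, Fdft1, Ebp and Acat2 in 2 and Idi1 and Msmo1 in 1. The part of the control order in the result was not tested.

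**Figure D4:**
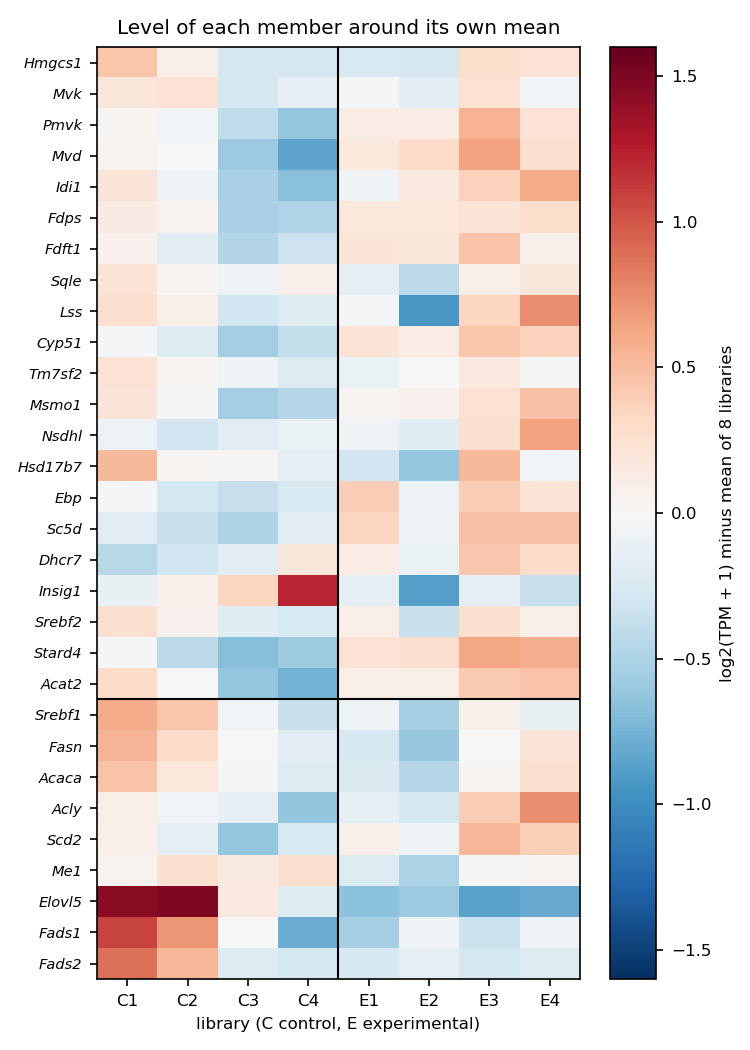
Log2(TPM + 1) of each tested member in each library, centred on the gene's mean over the 8 libraries, in blue below and red above it. Many sterol genes are lowest in control libraries 3 and 4 and highest in experimental libraries 3 and 4, and Elovl5, Fads1 and Fads2 are highest in control libraries 1 and 2.

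The fatty acid genes were called in neither direction on the listed scale. Of the 10, 9 passed the filter, and limma called 0 of them. At an unadjusted p under 0.05, 1 lay above control and 1 below, where 3.54% and 13.4% of all genes did. Of the 9, 2 lay above 0 in log2 change, Acly and Scd2, and 7 below, near the 25.5% of all genes above 0. Their median was -0.33 against -0.18 over all genes. With centring 3 lay above 0 and 6 below, against 54.5% of all genes above 0, the median was -0.12 against 0.03, and 1 rose, Scd2. Quantile normalization called 0. Groups did not overlap for Elovl5 and Me1, both lower, as for 9.94% of all genes, and for no fatty acid gene with experimental libraries higher (2.7%).

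Elovl5 had the widest log2 difference of the tested members. It elongates polyunsaturated fatty acids, and read 42.3, 43.8, 16.7 and 12.9 TPM across controls and 9.10, 9.63, 7.76 and 8.13 across experimental libraries. All experimental libraries lay below all controls, but controls 1 and 2 stood far above controls 3 and 4. The means were 28.9 ± 16.4 and 8.65 ± 0.859 TPM (SD, n = 4 each), 3.35-fold lower, with a log2 change of -1.45 (SE 0.36, adjusted p = 0.0690 in limma), or -1.24 with centring (limma adjusted p = 0.0814). Against control libraries 3 and 4 alone it was -0.71 (limma adjusted p = 0.0788), and against control libraries 1 and 2 alone -2.20 (limma adjusted p = 0.000424). Leaving out 1 library let it pass in 1 of 8 fits, without control 4 (limma adjusted p = 0.0108). In the authors' deposited table of lower genes Elovl5 has a log2 fold change of -1.43 (SE 0.35, DESeq2 adjusted p = 0.00113).

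The desaturases of the same pathway were low and ordered alike in controls. Fads1, the delta-5 desaturase, read 6.50, 4.75, 2.53 and 1.03 TPM across controls and 1.44, 2.41, 1.78 and 2.39 across experimental libraries. Fads2, the delta-6 desaturase, read 3.51, 2.53 and 1.10 TPM and was listed at 0 in controls 1 to 4, and read 1.04 and 1.19 TPM, was listed at 0 and read 1.10 TPM in experimental libraries 1 to 4. For both, controls 1 and 2 lay above all experimental libraries and control 4 did not. Their log2 changes were -0.49 and -0.46 (limma adjusted p = 0.505 and 0.391). Without control libraries 3 and 4, 4 fatty acid genes fell, Srebf1, Elovl5, Fads1 and Fads2 (21.6% of all genes fell in that fit), and without control libraries 1 and 2 none did (2.88%).

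Scd2, a stearoyl-CoA desaturase that makes monounsaturated fatty acids, lay the other way. It read 95.9, 81.5, 58.6 and 76.3 TPM across controls and 96.0, 86.5, 131 and 118 across experimental libraries. Experimental libraries 3 and 4 were well above all controls, experimental library 1 was level with control 1, and experimental library 2 lay between controls 1 and 2. This was a log2 change of 0.47 (SE 0.20, adjusted p = 0.279 in limma), or 0.68 with centring (limma adjusted p = 0.0386). The centred call held in 1 of 8 fits that left out 1 library, the one without control 4.

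Of the supply enzymes, Me1, malic enzyme, which yields NADPH, read 46.4, 53.8, 49.6 and 53.7 TPM across controls and 38.2, 31.2, 44.1 and 46.1 across experimental libraries. The highest experimental library was just below the lowest control. Its log2 change was -0.36 (SE 0.17, adjusted p = 0.320 in limma), or -0.14 with centring (limma adjusted p = 0.656). Acly, ATP citrate lyase, which supplies cytosolic acetyl-CoA to both routes, averaged 50.4 ± 10.4 and 66.1 ± 22.8 TPM (SD, n = 4 each), with experimental libraries 1 and 2 within the control range and 3 and 4 above it.

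The core of palmitate synthesis was lower in mean and did not pass. Fasn, fatty acid synthase, averaged 19.4 ± 4.49 and 15.3 ± 3.83 TPM, Acaca, acetyl-CoA carboxylase, 10.5 ± 2.29 and 9.04 ± 2.13 TPM, and Srebf1, which encodes SREBP1, 22 ± 6.70 and 17 ± 3.04 TPM (SD, n = 4 each). The log2 change of Acaca was -0.19 and became 0.02 with centring. For Fasn it was -0.33, or -0.12 with centring, and for Srebf1 -0.32, or -0.11. Without control libraries 1 and 2 the listed changes of Fasn, Acaca and Srebf1 were -0.08, 0.02 and 0.03. Without control libraries 3 and 4 they were -0.58, -0.41 and -0.68. Acacb, the mitochondrial carboxylase, did not pass the filter: it read 1.05 and 1.04 TPM in controls 1 and 2 and was listed at 0 in the other 6 libraries. The authors' deposited table lists Acacb as lower, with a log2 fold change of -2.09 (SE 0.50, DESeq2 adjusted p = 0.00107). Acacb and Elovl5 were the only members with a row in that table. It lists only lower genes, 748 of them, so it gives no result for members that rose.

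Sebaceous glands make fatty acids of their own, so the gland markers are given beside these genes. Of 14 sebaceous markers 12 were above the floor, and 1 fell, the elongase Elovl3 (1.54% of all genes fell). Their summed level was 2690.5, 2507, 1585 and 1693 TPM across controls and 1557, 1076, 1345 and 1711 across experimental libraries. Awat2, a wax ester synthase of sebocytes, read 24.6, 26.9, 10.5 and 10.8 TPM across controls and 4.41, 9.03, 3.39 and 6.09 across experimental libraries (log2 change -1.46, limma adjusted p = 0.0649). Controls 1 and 2 were highest in Awat2 as in Elovl5, and both stood above controls 3 and 4 in 60.4% of all genes. Mc5r, the other sebocyte marker named, had another order, with 4.33, 6.46, 6.17 and 8.77 TPM across controls. It read 11.3 TPM, was listed at 0, and read 1.9 and 2.35 TPM in experimental libraries 1 to 4 (limma adjusted p = 0.38). The part of gland content in the fatty acid values was not tested. The adipocyte list had 6 of 10 markers at 0 in every library, and its summed level was 129 to 1217 TPM across controls and 95.8 to 312 TPM in experimental libraries.

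**Figure D5:**
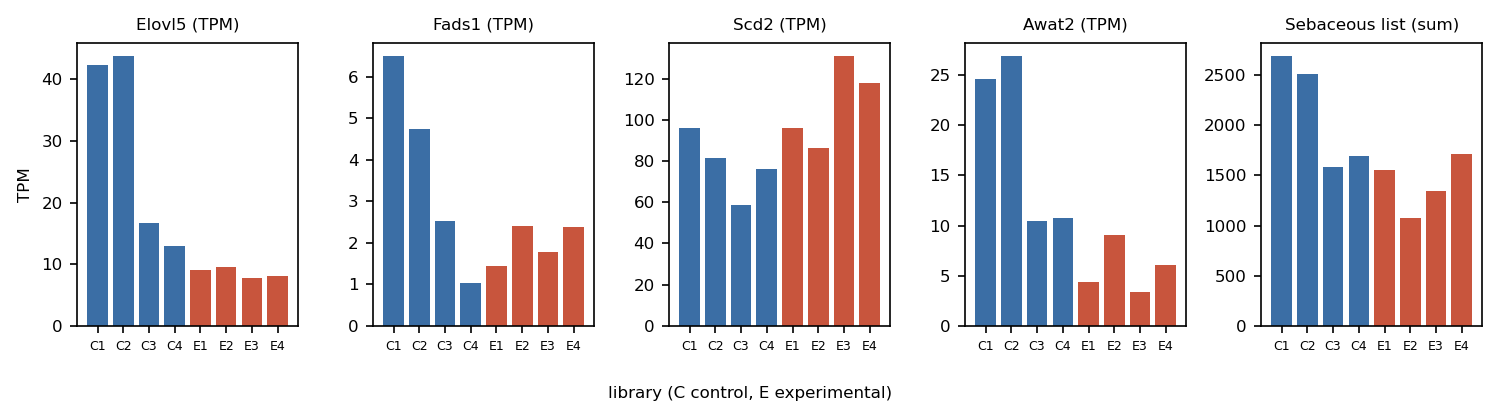
TPM of Elovl5, Fads1, Scd2 and Awat2 and of the summed sebaceous list in each library (bars, 4 control and 4 experimental, axes from 0). Control libraries 1 and 2 are highest in all panels except Scd2, and all experimental libraries lie below all controls for Elovl5 and Awat2.

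Keratinocyte layers also differed in level. Summed suprabasal markers read 80823 to 93145 TPM across controls and 100895 to 138819 TPM in experimental libraries, without overlap. However, of 12 such genes 1 passed in limma on the listed scale, and it fell, as did 1.54% of all genes. Summed hair follicle markers read 7659 to 56946 TPM in controls, highest in control 4, and 1783 to 13025 TPM in experimental libraries. Their part in the sterol values was not tested.

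Further genes of the same pathways did not follow the sterol enzymes. Of 18 other sterol genes tested limma called 0, with a median log2 change of -0.24 against -0.18 over all genes, and centring also called 0. Of the 18, 5 lay above 0 on the listed scale, near the 25.5% of all genes. At an unadjusted p under 0.05, 2 lay below control and 0 above, where 13.4% and 3.54% of all genes did. Lbr, the lamin B receptor, which is also a sterol reductase, read 22.8, 15.4, 13.5 and 25.2 TPM across controls and 9.07, 5.20, 12.1 and 9.46 across experimental libraries. All experimental libraries were below all controls (log2 change -1.03, SE 0.27, limma adjusted p = 0.0829). In the authors' deposited table of lower genes Lbr has a log2 fold change of -0.96 (DESeq2 adjusted p = 0.0392). Nfyb, which encodes a subunit of the factor that binds the NF-Y box, averaged 9.04 ± 3.68 and 5.37 ± 0.487 TPM (SD, n = 4 each; limma adjusted p = 0.292).

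Of 21 other fatty acid and triglyceride genes tested limma called 0 on the listed scale, with a median of -0.41 against -0.18 over all genes. At an unadjusted p under 0.05, 7 lay below control and 0 above, where 13.4% and 3.54% of all genes did. Centring called 1, which rose, as did 2.65% of all genes. Agpat2, an acyltransferase of triglyceride and phospholipid synthesis, averaged 8.96 ± 1.77 and 4.52 ± 1.13 TPM (SD, n = 4 each; limma adjusted p = 0.0607). Dgat1, which completes triglycerides, averaged 12.9 ± 5.60 and 5.72 ± 0.526 TPM (limma adjusted p = 0.106). Both are in the authors' deposited table of lower genes.

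Sterol efflux, storage and trafficking genes held 2 falls among 14 tested (1.54% of all genes fell), with a median of -0.47 against -0.18 over all genes. Mylip encodes the ligase that marks lipoprotein receptors for degradation and is a target of the oxysterol receptor LXR. It read 10.2, 8.33, 9.21 and 11.3 TPM across controls and 4.27, 2.60, 4.98 and 4.79 across experimental libraries. The groups lay far apart, and Mylip fell by 1.08 on the log2 scale (SE 0.20, adjusted p = 0.0230 in limma), and with centring too (limma adjusted p = 0.0251). Apoe, the lipid carrier apolipoprotein E and likewise an LXR target, averaged 1704 ± 231 and 911 ± 118 TPM (SD, n = 4 each), and its log2 change was -0.90 (SE 0.19, adjusted p = 0.0361 in limma). It did not pass with centring (limma adjusted p = 0.0551). The authors' deposited table of lower genes lists both, with a DESeq2 adjusted p of 0.000682 for Mylip and 0.000729 for Apoe. On the listed scale Mylip passed in 3 of 8 fits that left out 1 library, without control 1, control 4 or experimental library 2, and Apoe in 1, without control 4.

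Splicing of the 31 genes gave no entry: the deposited MAJIQ comparison, which lists junctions whose usage differed between groups, named 236 genes and 0 of the members. Among the other sterol genes it named Insig2, the relative of Insig1 (chromosome 1, minus strand). The share of reads using the junction from 121319972 to 121332492 was 0.672 in controls and 0.317 in experimental epidermis in the authors' deposited table, a difference of -0.348 with a probability of 0.998 of a change of at least 0.15. Retention of an intron from 121328025 to 121332491, absent from the annotation, went from 0.147 to 0.383 there (probability 0.866). That comparison combined the libraries of each group, so no spread over libraries was available.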

How the data were processed

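Gene expression was taken from 1 table of 8 libraries that the authors deposited as log2 TPM, with entries of 1 TPM or less listed at 0 (49.6% of entries). The scale was read from the values. The submitters' processing notes name STAR, SAMtools 1.9 and Salmon 0.14.0 without roles and the builds GRCm38 and mm10. Per the series design text, the authors used DESeq2 for differential expression and MAJIQ for splicing. The authors' deposited table of lower genes holds base means (a normalized signal), log2 fold changes, a test score and p-values, and the authors' deposited MAJIQ table holds PSI as a fraction, with differences and probabilities used here as scores.

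Values were floored at 1 TPM and analysed as log2(TPM + 1), a pseudocount of 1 TPM, over the 10682 genes with a mean of at least 1 TPM. The design assumed log2(TPM + 1) values, and the table proved to hold log2 TPM, which were converted first. The test was limma 3.58.1 in R 4.3.3 (empirical Bayes with a trend, two-sided), experimental minus control, with no covariate. On simulated data it recovered 58% of log2 changes of 1 and 88% of log2 changes of 2, so smaller changes can be missed. The simulated spread was drawn for each gene apart, without an order shared by many genes as in these controls. Benjamini-Hochberg adjustment ran over all genes tested. Alternatives were other pseudocounts, filters and scalings, no trend, library weights and libraries left out. No label states whether libraries came from separate litters, and p-values measure only the spread between these libraries.

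The 31 members and the companion and marker lists were chosen with earlier results of these data known. Named with values in every library were members past the threshold on the listed or centred scale, those whose groups did not overlap, and at least 3 per arm by lowest p. From each companion list the passing genes were named, or the 2 of lowest p. Symbols were matched by Ensembl identifier (21662 of 21690), exon overlaps were taken from GENCODE annotation of GRCm38, and promoters from RefSeq.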

Additional observations from a re-analysis of the deposited data

Results flagged for a closer look

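For the 31 members, Mylip and Apoe, 65 groups of 4 libraries with any spread were examined for a library far from the rest and 1 was found, and chance gives about 1 in 20. Fads2 was listed at 0 (0.0 TPM) in experimental library 3, against 1.04 to 1.19 TPM in the other 3 experimental libraries. With the listed 0 taken as 0 TPM, the gap was 0.869 of the group's range, above Dixon's limit for 4 values. A listed 0 can stand for any value up to 1 TPM, so the true size of this gap is unknown. All 4 values lie at or near the floor of 1 TPM, below which the table lists 0.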

How the results depend on the processing

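The alternatives were followed for the 15 members that passed on either scale or whose groups did not overlap. These kept the direction of their log2 change under all 21 alternatives tried for each. Of those values 278 stayed on the same side of the threshold, 29 passed it newly, and 8, all for Stard4, no longer passed. Over all genes the test called 263 as reported (98 higher, 165 lower), 385 with centring (283 higher, 102 lower) and 386 with quantile normalization (269 higher, 117 lower). Library weights called 4423 genes, 748 higher and 3675 lower (7% and 34.4% of all genes). They called 9 sterol genes, all higher, and 7 fatty acid genes, 1 higher and 6 lower. Leaving out 1 library gave 85 to 581 genes, 0 to 1 sterol gene and 0 to 1 fatty acid gene. Without control libraries 1 and 2, without control libraries 3 and 4, and without experimental libraries 2 and 4, the calls were 498, 2544 and 15 over all genes and 5, 2 and 0 for sterol genes, and without control libraries 3 and 4 they were 4 for fatty acid genes. Sterol calls were 1 as reported, 0 without the filter on low values, 5 with quantile normalization and 10 with centring. Fatty acid calls were 0 as reported, 1 with centring and 1 at an adjusted p under 0.1. Centring together with leaving out 1 library, chosen after seeing the data, gave 160 to 684 genes, 2 to 10 sterol genes and 0 to 2 fatty acid genes. Centring without the same pairs gave 586, 1336 and 55 genes and 7, 10 and 0 sterol genes, and 2 fatty acid genes without control libraries 3 and 4. The cause was not tested. No paired analysis was possible because the table's columns carry none of the replicate numbers of the labels. The floor of 1 TPM limits Acacb, Fads1 and Fads2. Fads1 and Fads2, outside the 15, changed sign without control libraries 1 and 2, with log2 changes of 0.15 and 0.02.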

Other observations

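A few genes next to the pathway were chosen after their values were seen. Scd1, the main stearoyl-CoA desaturase of sebaceous glands, read 162, 138, 49.3 and 31.4 TPM across controls and 32.7, 31.2, 22.6 and 34.3 across experimental libraries (log2 change -1.33, limma adjusted p = 0.173). Its relative Scd2 had a log2 change of 0.47. In the authors' deposited table Scd1 has a log2 fold change of -1.33 (DESeq2 adjusted p = 0.0221). Idi2, a copy of the isomerase gene Idi1, was listed at 0 in all 4 controls and in experimental library 4, and read 3.76, 2.72 and 3.12 TPM in experimental libraries 1 to 3 (limma adjusted p = 0.129). Insig2 averaged 120.2 ± 42.6 and 82.9 ± 20.3 TPM (SD, n = 4 each; limma adjusted p = 0.349), with control 4 highest at 184 TPM. Acat3, a near-identical copy of Acat2, was listed at 0 in all 8 libraries, so how reads were divided between the copies is uncertain.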
